A study of Mus musculus with 5 samples.

Results

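RNA-seq values for 9 of 10 genes named for study, out of 11352 in the deposited table, are described here. These 9 encode 4 RAS exchange factors (Rasgrp2, Rasgrp4, Sos1 and Sos2) and 5 RAS GTPase-activating proteins, or GAPs (Nf1, Rasa1, Rasa2, Rasa3 and Rasal3). The members were chosen by gene symbol, not by level, though with earlier results of these data known. The exchange factor gene Rasgrp1 was not analysed here. RNA came from mouse haematopoietic stem and progenitor cells (HSPCs) that flow cytometry had sorted as KIT- and SCA1-positive cells free of lineage markers and CD135. Per the labels, 3 libraries carried the genotype Cux1-knockdown;NrasG12D and 2 carried Cux1-knockdown. These groups, Cux1-low;NrasG12D and Cux1-low, are called the NrasG12D and the Cux1-low libraries below, and the Cux1 knockdown was common to both. All the mice had been given pI:C (a synthetic RNA duplex that induces interferon) and doxycycline over 4 weeks. The sources used here do not state the strain, age or sex of the mice, the promoters behind the alleles, or whether each library came from its own animal. The p-values therefore reflect only how far these samples spread, and that spread may be technical in part.

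RAS proteins are small GTPases that signal when bound to GTP and rest when bound to GDP. Exchange factors open the nucleotide pocket so that GTP can enter, and GAPs speed the hydrolysis of GTP back to GDP. Substitutions at glycine 12, such as that of NrasG12D, leave RAS poorly responsive to GAPs, so the mutant protein stays GTP-bound for longer. SOS proteins are brought to receptor tyrosine kinases by the adaptor GRB2, whereas RASGRP proteins, which are prominent in blood cells, bind diacylglycerol through a C1 domain. The comparison asks which of these regulators differ in mRNA level when an NrasG12D allele is added to HSPCs with Cux1 knocked down.

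Rasgrp2, Rasa3 and Rasal3 had the largest log2 fold changes among the 9 members, of either sign, though none passed the test over all genes. The start regions of their genes are shown for that size alone. Each sequence is the 250 bases before an annotated RefSeq start, taken from the RefSeq table of build GRCm38.p6 (mm10) and read 5′ to 3′ on the gene's strand. Rasgrp2 has a pair of such starts, and both windows are shown. Rasal3 also has a pair, at neighbouring bases, and only the upstream window is shown. Capitals mark matches, on either strand, to any of 6 short motifs. These were CCAAT (the CCAAT box), ATCGAT (a CUX1 motif), CGGAAG (ETS factors), GATAA (GATA factors), TGTGGT (RUNX factors) and CACGTG (the E-box). No matches overlapped in the printed windows.
Rasa3, chr8:13677588-13677837, minus strand: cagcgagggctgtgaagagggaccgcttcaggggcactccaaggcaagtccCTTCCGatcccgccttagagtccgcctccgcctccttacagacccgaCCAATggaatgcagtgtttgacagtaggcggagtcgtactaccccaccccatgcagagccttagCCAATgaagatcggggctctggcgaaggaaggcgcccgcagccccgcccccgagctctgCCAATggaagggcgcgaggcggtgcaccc
Rasal3, chr17:32403583-32403832, minus strand: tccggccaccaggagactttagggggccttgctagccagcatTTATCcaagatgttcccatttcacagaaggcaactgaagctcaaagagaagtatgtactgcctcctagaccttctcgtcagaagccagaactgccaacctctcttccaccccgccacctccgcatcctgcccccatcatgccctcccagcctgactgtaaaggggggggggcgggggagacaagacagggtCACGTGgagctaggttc
Rasgrp2, upstream start, chr19:6399625-6399874, plus strand: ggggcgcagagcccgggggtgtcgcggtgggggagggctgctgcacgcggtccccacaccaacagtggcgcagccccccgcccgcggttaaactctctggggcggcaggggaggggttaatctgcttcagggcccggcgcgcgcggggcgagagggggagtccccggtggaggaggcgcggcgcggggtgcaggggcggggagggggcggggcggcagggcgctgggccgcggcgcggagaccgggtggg
Rasgrp2, downstream start, chr19:6401455-6401704, plus strand: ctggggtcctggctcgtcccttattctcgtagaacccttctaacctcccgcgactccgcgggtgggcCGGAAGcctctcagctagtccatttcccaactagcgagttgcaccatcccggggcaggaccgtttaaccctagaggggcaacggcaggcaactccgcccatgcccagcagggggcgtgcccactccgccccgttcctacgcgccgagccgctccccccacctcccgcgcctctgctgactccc

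The Rasa3 window held 3 CCAAT matches, which began 152, 88 and 29 bases before the start, and 1 CGGAAG match on the opposite strand. At least 1 CCAAT was present in 33.9% of all 32851 windows of this length, and 3 or more in 2.79%. The Rasal3 window held a CACGTG (6.02% of all windows) and a GATAA on the opposite strand (22.6%). The downstream Rasgrp2 window held 1 CGGAAG (13.6%), and the upstream window held none of the 6. ATCGAT was in 0.728% of all windows and in none of these 4, and TGTGGT, at 14.1% of all windows, was in none of these 4 either. The GC content was 64.4% for Rasa3, 57.6% for Rasal3, and 79.6% and 67.2% for the upstream and downstream Rasgrp2 windows, against a median of 52.4% over all windows. These matches describe the letters alone.

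The libraries differed in ways that bear on every value below. Normalized CPM, the deposited unit, is a read count scaled to library size, and 1 read, inferred from the steps between values, was worth 0.0481 to 0.0608. All read numbers below are inferred in this way. NrasG12D library 3 stood apart from NrasG12D libraries 1 and 2. Its inferred reads were closer to those of the Cux1-low libraries (chi-square per degree of freedom of 35.0 and 35.3) than to those of the other NrasG12D libraries (49.6 and 63.8), while NrasG12D libraries 1 and 2 gave 27.7 against each other and the Cux1-low libraries 15.3. No pair of libraries agreed within sampling noise, where this value would be near 1. Of the genes behind the sort, Kit was at 477 to 816 normalized CPM in the NrasG12D libraries and 1359 to 1373 in the Cux1-low libraries. Ly6a, which encodes SCA1, was at 14.2 to 37.7 against 44.7 to 48.7. Flt3, which encodes the CD135 that the sort selected against, was at 165 to 230 against 326 to 388. These are mRNA values, whereas the sort was on protein, so they do not measure how pure it was. None of these genes passed over all genes (limma adjusted p = 0.0538 for Kit, 0.129 for Ly6a and 0.0538 for Flt3). Of 12 T and NK cell markers 4 were measured, and the defining Cd3d, Cd3e and Cd3g were not analysed here.

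None of the 9 members passed the test over all genes (limma adjusted p under 0.05), where 128 of 11352 genes, or 1.13%, did. At an unadjusted p under 0.05 there were 3 members, Rasgrp2, Rasa3 and Rasal3, against 31.4% of all genes. A negative sign was given to 8 of the 9, as it was to 50.3% of all genes, and the median log2 fold change was -0.25, against -0.0030 over all genes. An adjusted p under 0.05 was given to 2 members by the authors' deposited table, Rasgrp2 higher and Rasa3 lower, against 16.1% of all genes there (6.97% higher and 9.14% lower). For 4 members, Rasgrp2, Rasa1, Rasa3 and Rasal3, the values of the groups did not overlap, which held for 53.5% of all genes. Without NrasG12D library 3, these same 4 genes passed the limma test, 1 higher and 3 lower, in a fit where 37.4% of all genes passed (18% higher and 19.4% lower).

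**Figure D1:**
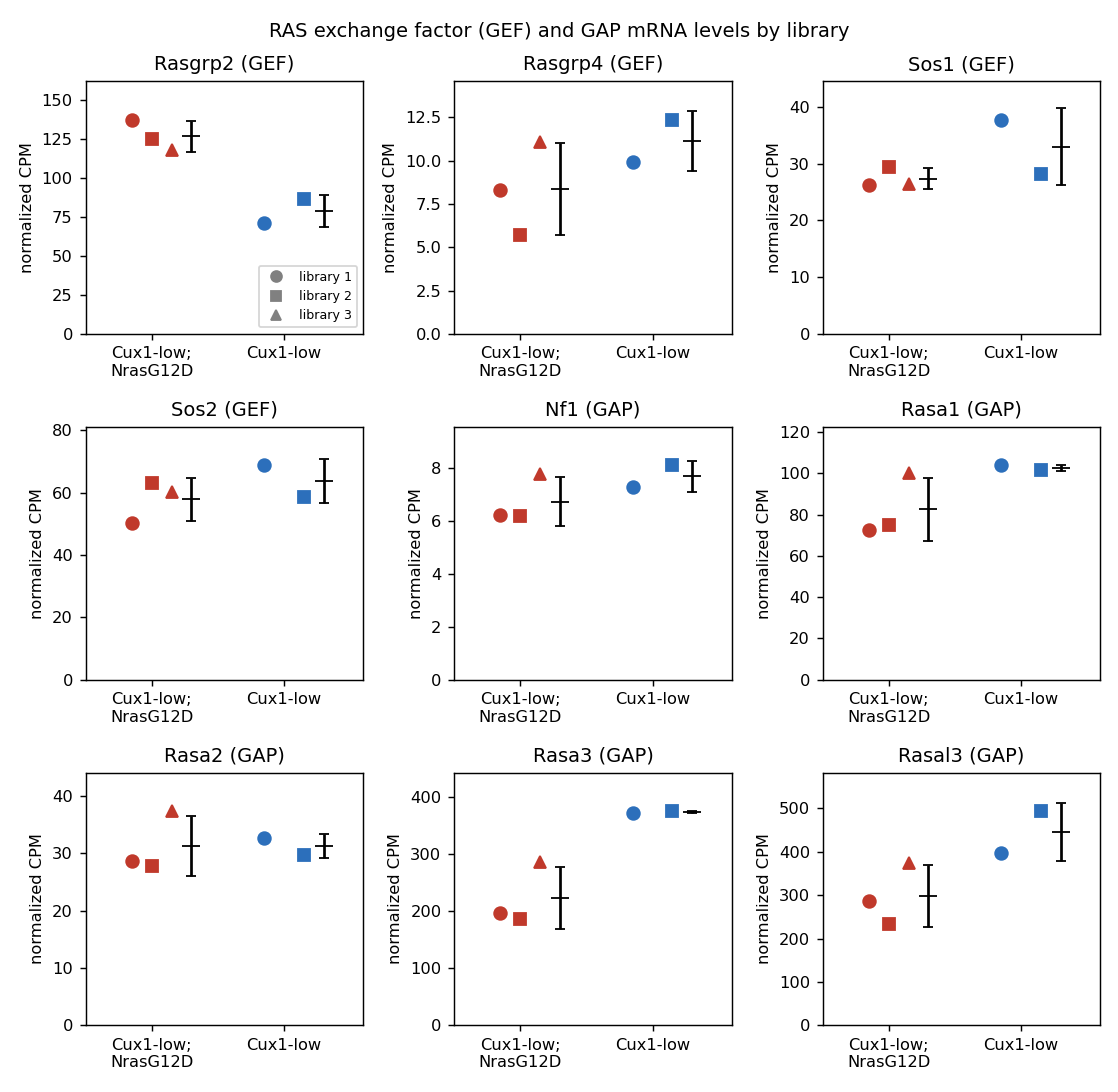
Normalized CPM of the 9 genes in each library, with Cux1-low;NrasG12D on the left and Cux1-low on the right of each panel, and black bars for the group mean and SD (n = 3 and n = 2). Rasgrp2 lies at 118 or more in the NrasG12D libraries and at 86.4 or less in the Cux1-low libraries, while Rasa3 and Rasal3 lie lower in the NrasG12D libraries, with library 3 (triangles) nearest to Cux1-low.

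Among the exchange factors, Rasgrp2 had the largest difference and the only positive one. Rasgrp2 (chromosome 19, 6399340 to 6415216, plus strand) encodes CalDAG-GEFI, a calcium- and diacylglycerol-regulated exchange factor best known for loading RAP1 and switching on integrins in platelets. It was at 138, 125 and 118 normalized CPM in the NrasG12D libraries and at 71.5 and 86.4 in the Cux1-low libraries. All 3 NrasG12D values were above both Cux1-low values, with library 3 the lowest of the 3 but still on the side of the other NrasG12D libraries. The means were 127 ± 9.99 (SD, n = 3) and 78.9 ± 10.5 (SD, n = 2), a ratio of 1.61. On the log2(normalized CPM + 1) scale, used for all fold changes of the fit, the difference was 0.68 (SE 0.13, 95% interval 0.38 to 0.99, limma adjusted p = 0.0549), just outside the threshold. Without NrasG12D library 3 it was 0.73 (limma adjusted p = 0.00657). Leaving out each library in turn gave 0.55 to 0.82 for Rasgrp2. In the authors' deposited table its log2 fold change was 0.69 with an adjusted p of 0.000812. A transcript on the opposite strand, Gm14965, overlaps 2.14% of its exon bases. The sources used here do not state whether reads were counted by strand, so reads from overlapping genes cannot be assigned with certainty.

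Rasgrp4 (chromosome 7, 29134851 to 29153961, plus strand), encodes an exchange factor described in mast cells and other myeloid cells. Rasgrp4 mRNA read 8.31, 5.71 and 11.1 normalized CPM in the NrasG12D libraries and 9.90 and 12.4 in the Cux1-low libraries. The groups overlapped, since library 3 lay between the Cux1-low values. Its log2 fold change of -0.41 (limma adjusted p = 0.338, SE 0.28) had a 95% interval of -1.06 to 0.25, which includes differences of either sign. It rested on 100 to 182 reads per NrasG12D library and 202 to 257 per Cux1-low library. Exons of Fam98c on the opposite strand cover 15.4% of its exon bases, which adds to the uncertainty of its level. Among 9 measured markers of mast cells, basophils and eosinophils, 2 fell (Prg2 and Epx, which encode eosinophil granule proteins) and 7 did not pass. Their summed level was 1357 to 3044 normalized CPM in the NrasG12D libraries and 1548 to 2542 in the Cux1-low libraries, and their part in the Rasgrp4 values was not tested.

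The SOS genes, whose proteins couple activated receptors to RAS, had overlapping groups, and neither passed the test. Sos1 (chromosome 17, 80393751 to 80480453, minus strand) was at 26.3, 29.4 and 26.4 normalized CPM in the NrasG12D libraries and at 37.8 and 28.3 in the Cux1-low libraries. One Cux1-low library was above all the others, and the remaining 4 lay close together. Sos1 had a log2 fold change of -0.25 (95% interval -0.64 to 0.15, limma adjusted p = 0.332), and it was -0.05 without Cux1-low library 1. Sos2 (chromosome 12, 69583762 to 69681852, minus strand) was at 50.2, 63.2 and 60.3 against 68.7 and 58.7, with overlapping groups. Its log2 fold change was -0.14 (95% interval -0.48 to 0.21, limma adjusted p = 0.535).

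Among the GAPs, Rasa3 and Rasal3 had the largest differences, and both were lower in the NrasG12D libraries, though neither passed over all genes. Rasa3 (chromosome 8, 13566948 to 13677603, minus strand) encodes a membrane-bound GAP of the GAP1 family that acts on RAS and RAP1 and is known in mice for its roles in platelets and red cell formation. It was at 197, 186 and 286 normalized CPM in the NrasG12D libraries and at 371 and 375 in the Cux1-low libraries. The Cux1-low libraries were nearly equal, NrasG12D libraries 1 and 2 were far below them, and library 3 lay between. The means were 223 ± 54.7 (SD, n = 3) and 373 ± 2.33 (SD, n = 2), a ratio of 0.597. Over all 5 libraries Rasa3 had a log2 fold change of -0.77 (SE 0.19, 95% interval -1.21 to -0.32, limma adjusted p = 0.0757). Without NrasG12D library 3 it was -0.96 (SE 0.09, limma adjusted p = 0.00148). Leaving out each library in turn gave -0.96 to -0.65 for Rasa3. The authors' deposited table gave -0.74 with an adjusted p of 0.00819.

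Rasal3 (chromosome 17, 32390659 to 32403583, minus strand) encodes a GAP of the SynGAP family that is found mainly in blood cells and is known in mice for the survival of naive T cells. It was at 287, 233 and 375 normalized CPM in the NrasG12D libraries and at 398 and 493 in the Cux1-low libraries. The groups did not overlap, but NrasG12D library 3 and Cux1-low library 1 were near each other, closer than the members of either group were among themselves. The means were 298 ± 71.8 (SD, n = 3) and 445 ± 67.3 (SD, n = 2), so the difference of the means was about as large as the SDs of the 2 groups added together. Rasal3 had a log2 fold change of -0.60 (SE 0.21, 95% interval -1.09 to -0.11, limma adjusted p = 0.116), and -0.78 without NrasG12D library 3 (limma adjusted p = 0.00853). Leaving out each library in turn gave -0.78 to -0.43 for Rasal3. The authors' deposited table gave -0.58 with an adjusted p of 0.0625, outside its threshold. The opposite-strand gene CT485616.1 overlaps 13.0% of the exon bases of Rasal3.

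Rasa1 (chromosome 13, 85214780 to 85289130, minus strand) encodes p120 RasGAP, which binds phosphorylated receptors through SH2 domains. It was at 72.5, 75.1 and 100 normalized CPM in the NrasG12D libraries and at 104 and 102 in the Cux1-low libraries. NrasG12D library 3 was just below the Cux1-low libraries, and only NrasG12D libraries 1 and 2 were clearly lower. For Rasa1 this came to a log2 fold change of -0.33 (limma adjusted p = 0.203, SE 0.16) over all 5 libraries and -0.47 without NrasG12D library 3 (limma adjusted p = 0.0114, SE 0.10). Leaving out each library in turn gave -0.47 to -0.24 for Rasa1.

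No difference was detectable for the remaining GAPs. Nf1 (chromosome 11, 79339693 to 79581612, plus strand) encodes neurofibromin, the GAP lost in neurofibromatosis type 1 and in a share of juvenile myelomonocytic leukaemias. It was at 6.21, 6.16 and 7.78 normalized CPM in the NrasG12D libraries and at 7.26 and 8.09 in the Cux1-low libraries. Only 108 to 168 reads per library stood behind these values, and library 3 lay between the Cux1-low libraries. The log2 fold change was -0.17 (95% interval -0.64 to 0.29, limma adjusted p = 0.565). Rasa2 (chromosome 9, 96539300 to 96631617, minus strand), another GAP1 family member, was at 28.7, 27.8 and 37.4 against 32.7 and 29.8. Library 3 was the highest of all 5, and the log2 fold change was -0.01 (95% interval -0.41 to 0.39, limma adjusted p = 0.973).

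NrasG12D library 3 did not hold one place between the groups over these genes. On a scale where 0 is the Cux1-low mean and 1 is the mean of NrasG12D libraries 1 and 2, it was at 0.744 for Rasgrp2, 0.481 for Rasa3, 0.381 for Rasal3 and 0.0894 for Rasa1. The higher level of the exchange factor was thus largely present in library 3, and the lower level of Rasa1 was not.

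**Figure D2:**
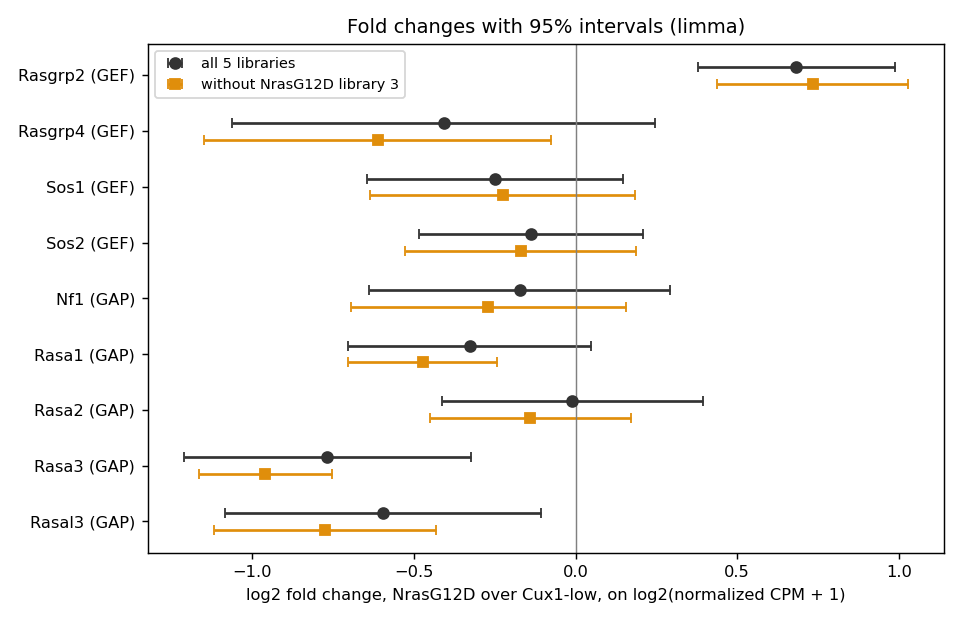
The log2 fold change of NrasG12D over Cux1-low with its 95% interval from limma, for all 5 libraries (black) and without NrasG12D library 3 (orange). Over all 5 libraries the unadjusted intervals of Rasgrp2 (0.38 to 0.99), Rasa3 (-1.21 to -0.32) and Rasal3 (-1.09 to -0.11) leave out 0, and adjusted over all genes none of the 9 passed.

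Levels of different genes can be set side by side only per length of transcript, and the choice of length moved Rasgrp2 and Rasa2 in the order. Per kilobase of all annotated exons (normalized CPM per kb), the order in the NrasG12D libraries was Rasal3 (60.9 ± 14.7), Rasa3 (43.7 ± 10.7), Rasa1 (11.3 ± 2.09), Rasgrp2 (10.2 ± 0.807), Sos2 (6.80 ± 0.805), Sos1 (2.58 ± 0.169), Rasa2 (1.97 ± 0.333), Rasgrp4 (1.31 ± 0.421) and Nf1 (0.424 ± 0.0580), each with SD over 3 libraries. The neighbours Rasal3 and Rasa3, Rasa1 and Rasgrp2, and Rasa2 and Rasgrp4 differed by less than their SDs added together. In the Cux1-low libraries the same measure gave 91.0 ± 13.7 for Rasal3, 73.2 ± 0.456 for Rasa3, 14.0 ± 0.200 for Rasa1 and 6.37 ± 0.850 for Rasgrp2 (SD, n = 2), which placed Rasgrp2 below Sos2 (7.48 ± 0.835), by less than their SDs added together. The annotated exons of Rasgrp2 span 12384 bases, while its principal coding transcript has 2296. By the length of principal coding transcripts, Rasgrp2 was at 55.3 ± 4.35 in the NrasG12D libraries, next to Rasa3 (50.6 ± 12.4), and at 34.4 ± 4.58 in the Cux1-low libraries, far below Rasa3 (84.7 ± 0.528). By that length Rasa2 stood above Sos1, at 5.38 ± 0.908 against 3.25 ± 0.212 in the NrasG12D libraries and 5.38 ± 0.359 against 3.91 ± 0.800 in the Cux1-low libraries, whereas by all annotated exons it stood below Sos1.

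Summed per kilobase, GAP mRNAs exceeded exchange factor mRNAs in every library, and the ratio of the sums was lower in every NrasG12D library than in either Cux1-low library. By all annotated exons the ratio was 5.26, 4.55 and 7.16 in the NrasG12D libraries and 9.01 and 10.3 in the Cux1-low libraries. By principal coding transcripts it was 1.95, 1.81 and 2.89 against 4.43 and 4.57. NrasG12D library 3 again lay nearest to the Cux1-low libraries. The ratio describes mRNA of 9 genes chosen by name, was given no test, and says nothing of protein or activity. Groups that did not overlap were also seen for 53.5% of all single genes. Measured GAP genes outside the 9 are not in the sums, among them Rasa4, whose groups overlapped (131, 97.2 and 84.6 normalized CPM against 78.6 and 98.2). The sums rest on few genes, since Rasa3 and Rasal3 make up most of the GAP sum. By principal coding transcripts, Rasgrp2 makes up most of the exchange factor sum. It held 55.3 of a mean of 70.7 in the NrasG12D libraries and 34.4 of 52.1 in the Cux1-low libraries. The other 3 exchange factors had negative log2 fold changes.

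**Figure D3:**
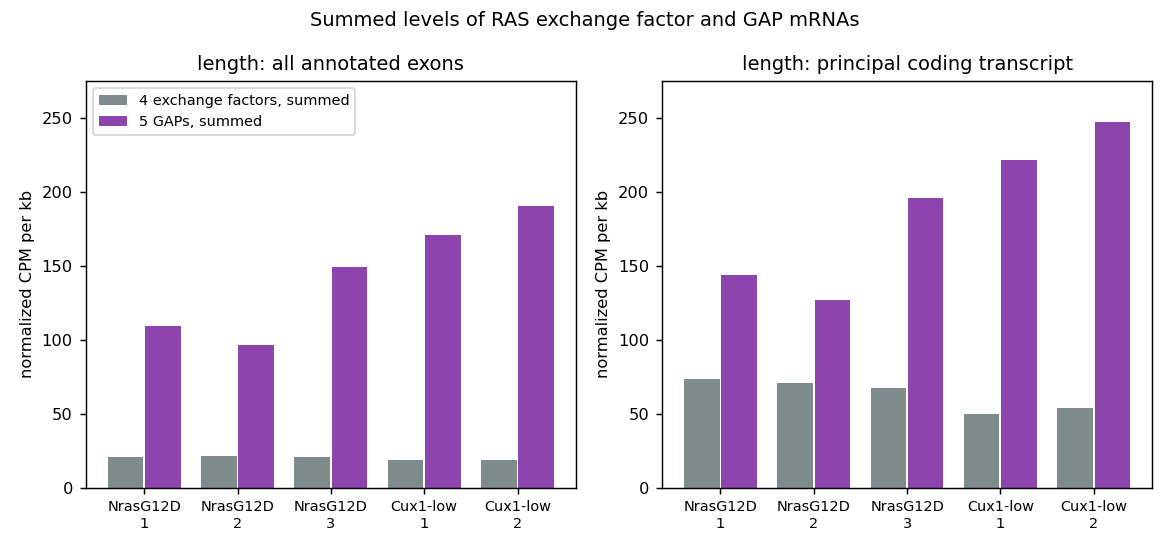
Bars give the summed normalized CPM per kilobase of the 4 exchange factors (grey) and the 5 GAPs (purple) in each library, NrasG12D libraries on the left, by 2 definitions of gene length. The GAP bars lie between 96.5 and 149 in the NrasG12D libraries and between 171 and 191 in the Cux1-low libraries with all annotated exons, and the exchange factor bars are lower than the GAP bars in every library.

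The genes around these regulators were read from lists of pathway genes, against the 1.13% of all genes called over the 5 libraries. Of 11 further RAS exchange factors, GAPs and partners of neurofibromin, 7 were measured and 0 passed. Rasal1, a calcium-responsive GAP, was at 4.26, 6.79 and 2.25 normalized CPM in the NrasG12D libraries and at 2.06 and 1.97 in the Cux1-low libraries. Its library 3 value was close to Cux1-low, and its level was low in every library (limma adjusted p = 0.208). Spred3, of the SPRED family whose members bring neurofibromin to the membrane, was at 1.54, 1.31 and 2.43 against 3.58 and 2.98 (limma adjusted p = 0.151). Of 6 RAS-family GTPase genes 0 passed. Rras, which encodes R-RAS, a relative of RAS with a role in integrin adhesion, was at 6.41, 5.71 and 7.96 against 13.7 and 15.1 (limma adjusted p = 0.0579). Mras was at 2.26, 2.0 and 2.19 against 4.17 and 4.91 (limma adjusted p = 0.0806).

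Genes of the diacylglycerol and calcium input to RASGRP proteins had mostly negative signs. Of 19 genes for phospholipase C enzymes, which make diacylglycerol, diacylglycerol kinases, which remove it, and protein kinase C enzymes, which respond to it, 18 had a negative log2 fold change, with a median of -0.51. Over all genes 50.3% had a negative sign, and the median was -0.0030. One fell and 18 did not pass over all genes. Prkcq, which encodes protein kinase C theta, which acts beside RASGRP proteins in diacylglycerol signalling of T cells, fell to 31.3, 30.4 and 43.7 normalized CPM in the NrasG12D libraries, against 94.7 and 88.8 in the Cux1-low libraries. All 3 NrasG12D libraries lay below 50, and the log2 fold change was -1.38 (limma adjusted p = 0.0354, SE 0.18). Prkch, for protein kinase C eta, was at 58.7, 51.8 and 75.5 against 118 and 141 (log2 fold change -1.06, limma adjusted p = 0.0508). The enzymes that make and that remove diacylglycerol were both among the negative signs, with Plcg2 at 226, 193 and 350 against 423 and 468, and Dgka at 16.0, 18.1 and 22.2 against 28.3 and 31.1. Both of these were chosen after their values were seen. Without NrasG12D library 3, 11 of the 19 fell and 1 rose, where 19.4% of all genes fell and 18% rose. Without any one of the other libraries no gene of this list passed, and of the other called genes named from the lists Prg2 alone did, without NrasG12D library 2.

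RAP1, the preferred substrate of CalDAG-GEFI, had 20 measured genes in its cycle and among its talin-linked effectors. None passed over all genes, 12 had a negative sign, as did 50.3% of all genes, and the median was -0.08. Sipa1l1, a GAP for RAP, was at 53.7, 65.0 and 114 normalized CPM in the NrasG12D libraries and at 183 and 187 in the Cux1-low libraries (log2 fold change -1.32, limma adjusted p = 0.0680). Library 3 again lay between. Rapgef2, a RAP exchange factor, was at 10.6, 13.8 and 17.7 against 31.5 and 26.2 (log2 fold change -1.01, limma adjusted p = 0.0695). Without NrasG12D library 3, 6 of these 20 genes fell and 0 rose, where 19.4% of all genes fell.

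Adaptors next to the receptors gave 0 calls among 15. Gab2, a docking protein for the phosphatase SHP2 and PI3K, was at 19.3, 20.4 and 34.7 normalized CPM in the NrasG12D libraries and at 59.7 and 49.1 in the Cux1-low libraries (log2 fold change -1.14, limma adjusted p = 0.0702). Grap, a blood-cell relative of GRB2, was at 7.95, 8.05 and 4.74 against 1.81 and 2.89 (log2 fold change 1.23, limma adjusted p = 0.0726). Among 8 RAF, MEK and ERK kinase genes 0 passed. Map2k2, which encodes MEK2, was at 212, 209 and 192 against 153 and 163 (limma adjusted p = 0.0830), and Ksr1, a scaffold of the cascade, was at 4.05, 4.51 and 6.32 against 6.86 and 6.06 (limma adjusted p = 0.344). Of 14 measured ERK targets and feedback genes, Emp1 rose (log2 fold change 1.68, limma adjusted p = 0.0430) and 13 did not pass. The signs of the 14 were split, 7 negative and 7 positive, with a median of -0.046. Without NrasG12D library 3, 3 of the 14 rose and 3 fell, where 18% of all genes rose and 19.4% fell. Spry4, a feedback inhibitor of RAS signalling, was at 6.62, 5.88 and 10.1 against 2.55 and 1.83 (limma adjusted p = 0.0579).

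**Figure D4:**
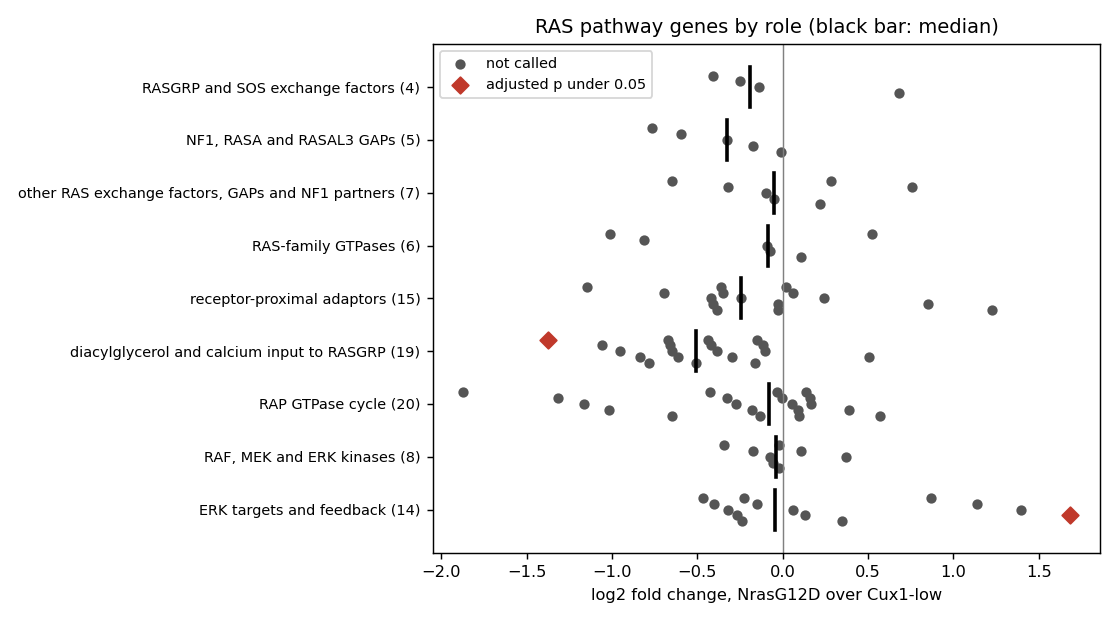
Each point is the log2 fold change of 1 gene, NrasG12D over Cux1-low, grouped by role with the number of measured genes in brackets, black bars at the median and red diamonds for genes past an adjusted p of 0.05. The genes for diacylglycerol and calcium input lie to the left of 0 in 18 of 19 cases, against 50.3% of all genes, with Prkcq as the called gene. The kinase list centres near 0 (median -0.04).

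The genes whose pattern over the 5 libraries was most like that of each leading member were named by the smallest distance between log2 profiles centred on their own mean. They share the libraries and their depth, and 5 libraries allow many genes to look alike. For Rasa3 they were Vwa5a (distance 0.0435), Adrbk2 (0.0577) and Rassf2 (0.0735). Vwa5a was at 56.8, 52.0 and 79.7 normalized CPM in the NrasG12D libraries and at 106 in both Cux1-low libraries. Rassf2, whose protein binds K-RAS, was at 69.7, 62.5 and 102 against 128 in both. For Rasgrp2 the nearest included Mrpl34 (0.110) and Hist2h2ac (0.114), and for Rasal3 they were Sytl1 (0.108), Grasp (0.110) and Slc16a13 (0.111). Mrpl34, a mitochondrial ribosomal protein gene, was at 134, 121 and 122 against 75.4 and 84.7, which puts library 3 beside NrasG12D library 2, as for Rasgrp2.

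Marker lists of other cell types were read beside these values, and in bulk samples fewer cells of a type and less RNA per cell cannot be told apart. The signs below stand against 50.3% negative over all genes, and the calls against 1.13%. Megakaryocyte and platelet markers bear on Rasgrp2 and Rasa3, which platelets use. Of 12 measured, 0 passed and 11 had a negative sign, and their summed level was 670 to 1335 normalized CPM in the NrasG12D libraries and 1477 to 1504 in the Cux1-low libraries. Rasgrp2 was higher where this sum was lower, while Rasa3 and the sum were lower together. Stem cell markers gave 2 falls (Gprasp2 and Ndn) and 12 of 13 negative signs, with sums of 355 to 667 against 1065 to 1073. Erythroid markers had 9 of 9 positive signs, 0 called, and sums of 5514 to 10918 against 4546 to 4985, and the 4 globin genes listed were not analysed here. B cell markers, 8 measured and 0 called, summed to 269, 551 and 60.5 in NrasG12D libraries 1, 2 and 3, against 58.1 and 79.4 in the Cux1-low libraries. Neutrophil and monocyte markers, 7 measured and 0 called, summed to 8383 to 19779 against 7739 to 10857, and S100a8 and S100a9 were not analysed here. Dendritic cell markers, 6 measured, gave 1 fall, H2-Aa, and sums of 227 to 372 against 613 to 952. The 5 with a negative sign, Cd74, H2-Aa, H2-Ab1, H2-Eb1 and Ciita, all belong to MHC class II presentation, which is not particular to dendritic cells. Itgax had a positive sign and overlapping groups, at 3.39, 2.17 and 1.46 against 2.79 and 1.20. Siglech and Cd209d were not analysed here. With a pseudocount of 0.1 in place of 1, Gprasp2, Ndn and H2-Aa no longer passed (limma adjusted p of 0.0533, 0.0588 and 0.0540). The 4 measured T and NK cell markers summed to 255 to 389 against 271 to 306. No marker in these lists was at 0 in all libraries, and the part of any of these cell types in the values of the RAS regulators was not tested.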

How the data were processed

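The deposited table holds 1 column per library, headed CPM per the file headers. These signal values were deposited after scaling by a composition factor, since the columns sum to 971746 to 1026780. The submitters' processing notes name TopHat, HTSeq, edgeR and the builds hg19 and mm10, without roles. The authors' own log2 fold change, mean log2 CPM, likelihood ratio score, p-value and adjusted p-value stand in the same deposited table, where a positive fold change means higher in NrasG12D. Every value was a whole multiple (within 0.02 of a step) of the value of 1 read, which gave 16489711 to 20262498 inferred reads per library. These were used for depth, counting error and the chi-square comparison of libraries. A separate check of the column units did not accept them as recovered counts, so no count test was run.

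A limma model (limma 3.58.1, R 4.3.3, trended variance) was fitted to log2(normalized CPM + 1) of all 11352 genes, 3 NrasG12D against 2 Cux1-low libraries, 2-sided, with Benjamini-Hochberg adjustment at 0.05. The filter, a value of 1 or more in 2 or more libraries, removed none, and all 9 members passed it. This scale understates the change of low genes. Coordinates and lengths are from GENCODE M21 (mm10), and RefSeq start windows matched 9 of 10 member names, not Rasgrp4. Members and gene lists were chosen with earlier results of these data known. From each list the called genes, or the 2 with the smallest p where fewer than 2 were called, are named. The pseudocount, filter, scaling, robust variance, each library in turn and a replicate block were varied. Tables and figures were made in Python 3.11.15 with pandas 2.3.3 and matplotlib 3.10.9. One gene that the rule for like patterns named is not reported here.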

Additional observations from a re-analysis of the deposited data

How the results depend on the processing

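Over 13 alternatives and 9 members, 104 of 117 fold changes kept their sign and their side of the threshold, 9 moved past it and 4 changed sign. All 4 were for Rasa2, whose log2 fold change turned positive, at 0.0022 with libraries scaled to the same median, 0.06 without Cux1-low library 1, 0.04 without NrasG12D library 1 and 0.067 without NrasG12D library 2, and was -0.14 without NrasG12D library 3. For the 32 other genes named from the lists, 324 of 412 values kept their sign and their side of the threshold, 52 moved past it, 36 fell short of it and 0 changed sign. Both tallies include a fit without the filter, which equals the main fit by construction because the filter removed no gene. They also include the replicate block, whose fold changes equal those without NrasG12D library 3. The count of members called was 0 to 4 and of all genes 3 to 4243 when 1 library was left out. The 4 members were called without NrasG12D library 3. Of all genes, 3 were called without either Cux1-low library or without NrasG12D library 1, and 22 without NrasG12D library 2, against 128 over all 5. Where 1 Cux1-low library remained, it was assumed to vary like the others. With all libraries rescaled to 1 common total, 213 genes were called and 0 members.

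Replicate numbers are shared between the groups, but nothing in the labels ties them to an animal or batch. The difference between libraries 1 and 2 correlated at -0.12 between the groups over 11352 genes. With a replicate block, which leaves pairs 1 and 2 and so removes NrasG12D library 3 from the contrast, 4163 genes (36.7% of all) and 5 members were called. The members were Rasgrp2, Rasgrp4, Rasa1, Rasa3 and Rasal3. Over the 13 alternatives the adjusted p ranged from 0.000508 to 0.400 for Rasgrp2, from 5.19e-06 to 0.405 for Rasa3, from 0.000197 to 0.444 for Rasal3 and from 0.0114 to 0.532 for Rasa1. The lowest libraries of Nf1 and Rasgrp4 held 108 and 100 inferred reads, and for Nf1 counting error alone reached 9.62% of the level.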
